A study of Homo sapiens with 6 samples.

Results

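Cancer-testis antigens are proteins made in the testis and placenta and in few other healthy tissues, and made again in many tumours, where they can be seen by T cells. Their genes are kept off in somatic cells in large part by DNA methylation, and many sit in multicopy families on the X chromosome. In multiple myeloma, a cancer of plasma cells, proteins of this class have been used as targets of vaccines and engineered T cells. The genes described here were taken by name from the platform's probe annotation. They were all symbols that begin with MAGEA to MAGEH, SSX, GAGE, PAGE, XAGE, SPANX or CTAG, with LIN28B, GTSF1, PRAME, BAGE and CTCFL added singly. This gave 15 of the 14884 named genes, measured by 21 of the 16098 named probe sets.

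Expression was measured in 3 established human myeloma cell lines, RPMI8226, KMS11 and U266, with 1 Affymetrix Human Gene 2.0 ST array for each line after a miR-10a mimic and 1 after a scrambled control. Mimic or control was given at 100 nM with HiPerFect, and cells were harvested 48 h later. In this order the groups were RPMI8226 with mimic and control, KMS11 with mimic and control, and U266 with mimic and control. A mimic is a synthetic double-stranded RNA that stands in for the mature microRNA. The labels do not name its arm. The 5p arm of miR-10a in RefSeq is shown because it is the sequence usually meant by the name (chr17:48579904-48579926, minus strand, GRCh38.p14), with its seed (bases 2 to 8) in capitals.
hsa-miR-10a-5p: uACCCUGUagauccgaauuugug

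No label tells of separate cultures behind the arrays of a line. P-values therefore measure the spread between these 6 arrays, which may be technical. In such bulk samples, fewer cells that express a gene and less RNA per cell cannot be told apart. Over all probe sets the median of an array was 3.61 to 3.66 log2 units. The labelled cell type was set against plasma cell markers, of which 6 of 9 listed were named on the array. XBP1 and IRF4, transcription factors of plasma cells, stood at or above the 75th percentile of named genes in every line, whereas CD38 did so in RPMI8226 alone, at 9.91 with mimic and 9.99 in the control, and SLAMF7 in U266 alone, at 7.23 with mimic and 7.73 in the control. SDC1 (CD138), the surface marker of plasma cells, had line means of 7.23 for RPMI8226, 5.62 for KMS11 and 9.49 for U266, so its KMS11 level was below that percentile. MZB1, a chaperone of antibody secretion, was above it in RPMI8226 and KMS11 and below it in U266, at 6.11 with mimic and 6.18 in the control. B cell, stromal, and T, NK and myeloid marker lists had 3, 3 and 6 named genes, and none of these genes reached that percentile on both arrays of any line. The mean level of the T, NK and myeloid list ranged from 3.60 to 3.86 over the 6 arrays, and that of the stromal list from 2.52 to 2.84.

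Few of the antigen families could be read. In RefSeq (GRCh38.p14) 124 genes match the rule, and the named probe sets stand for 15 of them. Of these 7 are GAGE genes (GAGE2A, GAGE10, GAGE12C, GAGE12G, GAGE12H, GAGE12J and GAGE13), whose products are small antigens of unsettled function. CTAG1A is a copy of the gene for NY-ESO-1, and CTAG2 encodes its relative LAGE-1. CTAGE1 begins with the same letters, but encodes an unrelated antigen first found in cutaneous T cell lymphoma. SPANXA2-OT1 is a long noncoding transcript that overlaps the sperm protein gene SPANXA2 and encodes no antigen. LIN28B is an RNA-binding protein of early development that blocks the maturation of let-7 microRNAs. GTSF1 is a germ cell factor of the piRNA pathway, needed in mouse testis to silence transposons. PRAME is a melanoma antigen that acts as a substrate receptor of a ubiquitin ligase, and CTCFL (BORIS) is the germ cell paralog of CTCF. None of the 15 has a MAGEA to MAGEH, SSX, PAGE or XAGE symbol or is BAGE, so these could not be read by the rule. Of the 15 genes, 10 lie on the X chromosome and 5 on autosomes.

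Which genes were high differed between the lines, and none was high in KMS11. For a reading of level, a gene was called high in a line when both arrays lay at or above the array's 75th percentile over all named genes (6.46 to 6.55 log2 units), low when both lay below its median (4.61 to 4.70), and intermediate otherwise. By this reading 2 genes were high in RPMI8226 (LIN28B and GTSF1), 0 in KMS11, and 4 in U266 (CTAG1A, CTAG2, LIN28B and GTSF1). All 15 were low in KMS11, against 7 in RPMI8226 and 6 in U266. These counts take the GAGE genes as separate, though most are near-identical copies. Some also lay close to the cutoff. GAGE12C in KMS11 stood at 4.683 with mimic and 4.658 in the control, and the medians of those arrays were 4.697 and 4.674. Over all named genes, 48.4% were low in KMS11, 48.4% in RPMI8226 and 48.3% in U266. High in at least 1 line were 4 of the 15, against 31% of named genes. No gene was high in all 3 lines (17.5% of named genes were), and 4 were low in all 3 (CTAGE1, CTCFL, GAGE10 and PRAME, 41.5% of named genes). The probe set's own brightness also enters such a reading, and the table holds no detection calls, so a low gene may still be transcribed.

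**Figure D1:**
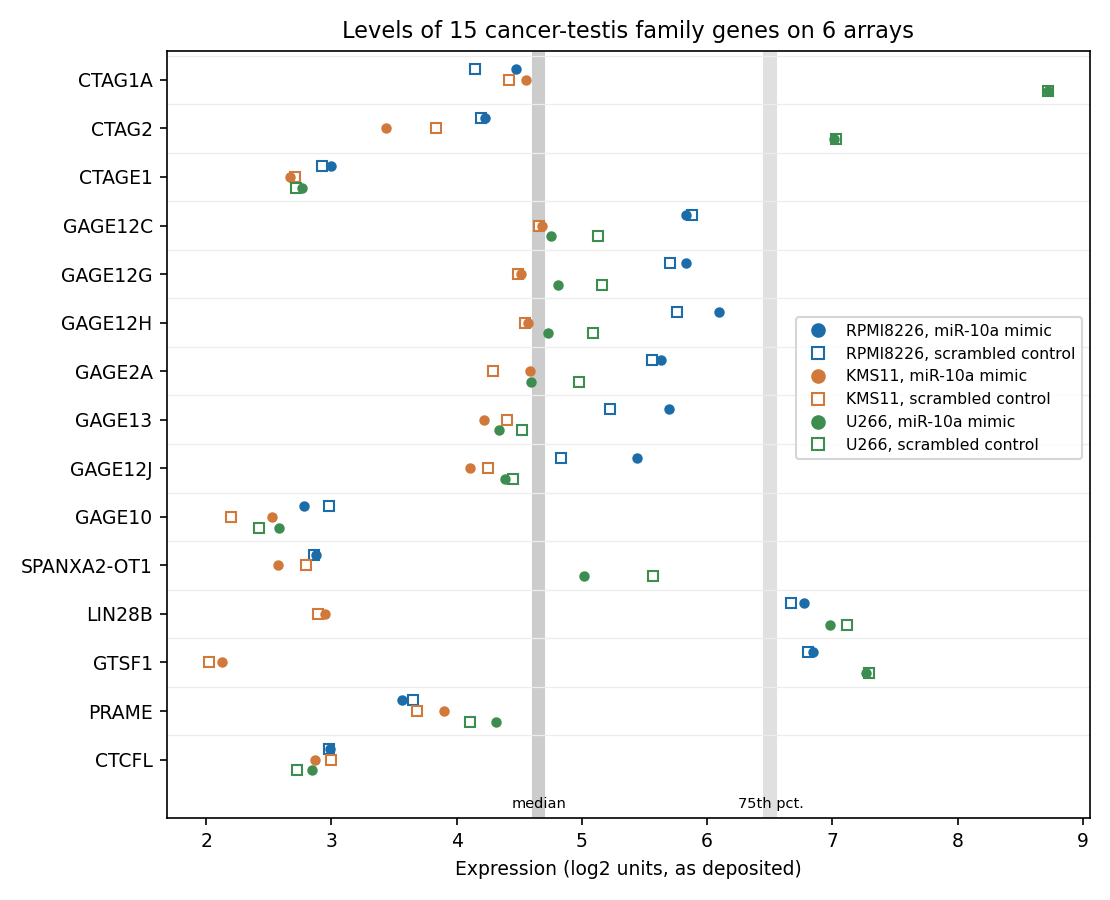
Expression in log2 units of the 15 genes (rows) on 6 arrays, with filled circles for miR-10a mimic and open squares for scrambled control, coloured by line. The grey bands are the range over arrays of the median and of the 75th percentile of all named genes. CTAG1A and CTAG2 lie right of the upper band in U266 only, LIN28B and GTSF1 in RPMI8226 and U266, and no gene does in KMS11.

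Differences between the lines were tested with limma, each line being represented by its mimic and control array, with p-values adjusted by Benjamini-Hochberg over all 14884 genes. In the F test of the line, 12 of the 15 genes passed (80%), where 50.8% of all named genes did. With a range of line means of at least 2 log2 units (4-fold) added, 5 genes passed (33.3%), against 6.74% of all named genes. These were CTAG1A, CTAG2, SPANXA2-OT1, LIN28B and GTSF1. The last 2 were added to the 15 singly, with earlier results of these data known. A range of at least 4 log2 units with the same test was seen for 3 genes, against 1.26%. The median range of line means was 1.18 log2 units over the 15 genes and 0.46 over all named genes. The GAGE genes are near-identical copies, so the 12 are not 12 separate measurements. With the 6 alike GAGE genes counted once, 7 of 10 genes passed, where 7556 of 14879 named genes did.

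The NY-ESO-1 genes were high in U266 alone. CTAG1A stood at 4.47 with mimic and 4.15 in the control of RPMI8226, at 4.56 and 4.42 with mimic and control in KMS11, and at 8.72 with mimic and 8.72 in the control of U266. The U266 values lay more than 4 log2 units above those of every other array. RPMI8226 was lower than U266 by -4.41 log2 units, or 21.3-fold (95% confidence interval -4.70 to -4.13, limma's adjusted p = 3.36e-06). KMS11 was lower than U266 by -4.23 log2 units (18.8-fold, adjusted p = 5.3e-06). RPMI8226 and KMS11 differed by -0.18 log2 units (interval -0.46 to 0.11, adjusted p = 0.31).

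CTAG2 was likewise highest in U266. It stood at 4.23 with mimic and 4.20 in the control of RPMI8226, at 3.43 with mimic and 3.84 in the control of KMS11, and at 7.02 with mimic and 7.03 in the control of U266. No array of another line reached the U266 values. RPMI8226 was 7.02-fold lower than U266 (log2 difference -2.81, limma's adjusted p = 2.67e-05), and KMS11 was 10.5-fold lower (-3.39, adjusted p = 1.68e-05). RPMI8226 was also higher than KMS11 by 0.58 log2 units (adjusted p = 0.0177), a call that was lost without the mimic array of RPMI8226 (0.46) or of KMS11 (0.37).

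SPANXA2-OT1 was also far higher in U266 than in both other lines. It read 2.88 with mimic and 2.86 in the control of RPMI8226, 2.58 with mimic and 2.80 in the control of KMS11, and 5.02 with mimic and 5.57 in the control of U266. Both U266 arrays lay above all others, by more than the 0.55 between them. RPMI8226 was 5.37-fold lower than U266 (log2 difference -2.42, limma's adjusted p = 6.86e-05) and KMS11 6.09-fold lower (-2.61, adjusted p = 6.76e-05). RPMI8226 minus KMS11 was 0.18 (interval -0.18 to 0.55, adjusted p = 0.42). The transcript overlaps multicopy SPANX loci, so reads of near-identical copies by this probe set cannot be told apart. With CTAG1A and CTAG2, 3 of the 15 genes (20%) were at least 4-fold higher in U266 than in both other lines. Among all named genes 0.873% were, and among the 569 named genes of the X chromosome 2.99%, or 17 genes.

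LIN28B and GTSF1 shared another pattern, high in RPMI8226 and U266 and low in KMS11. LIN28B stood at 6.78 with mimic and 6.67 in the control of RPMI8226, at 2.95 with mimic and 2.89 in the control of KMS11, and at 6.98 with mimic and 7.12 in the control of U266. Every array of RPMI8226 and U266 lay above both KMS11 arrays. RPMI8226 was 13.9-fold higher than KMS11 (log2 difference 3.80, interval 3.53 to 4.07, limma's adjusted p = 6.78e-06). KMS11 was 17.5-fold lower than U266 (-4.13, adjusted p = 5.3e-06). Between RPMI8226 and U266 the difference was -0.33 (interval -0.59 to -0.06, adjusted p = 0.059), and this one passed when the fit was restricted to genes above the median level or had no treatment term.

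GTSF1 read 6.85 with mimic and 6.81 in the control of RPMI8226, 2.13 with mimic and 2.02 in the control of KMS11, and 7.27 with mimic and 7.29 in the control of U266. Its KMS11 values lay near the bottom of the scale. RPMI8226 was 26.9-fold higher than KMS11 (log2 difference 4.75, limma's adjusted p = 3.29e-06), and KMS11 was 36.9-fold lower than U266 (-5.21, adjusted p = 2.76e-06). RPMI8226 was lower than U266 by -0.46 (1.37-fold, adjusted p = 0.0123), a call lost without either RPMI8226 array or without the control array of U266. Both genes are autosomal, LIN28B on chromosome 6 and GTSF1 on chromosome 12. A level in KMS11 at least 4-fold below both other lines was found for these 2 of 15 genes (13.3%), against 0.383% of all named genes. Both were added to the 15 singly, with earlier results of these data known, so the share describes the choice of genes and tests nothing.

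**Figure D2:**
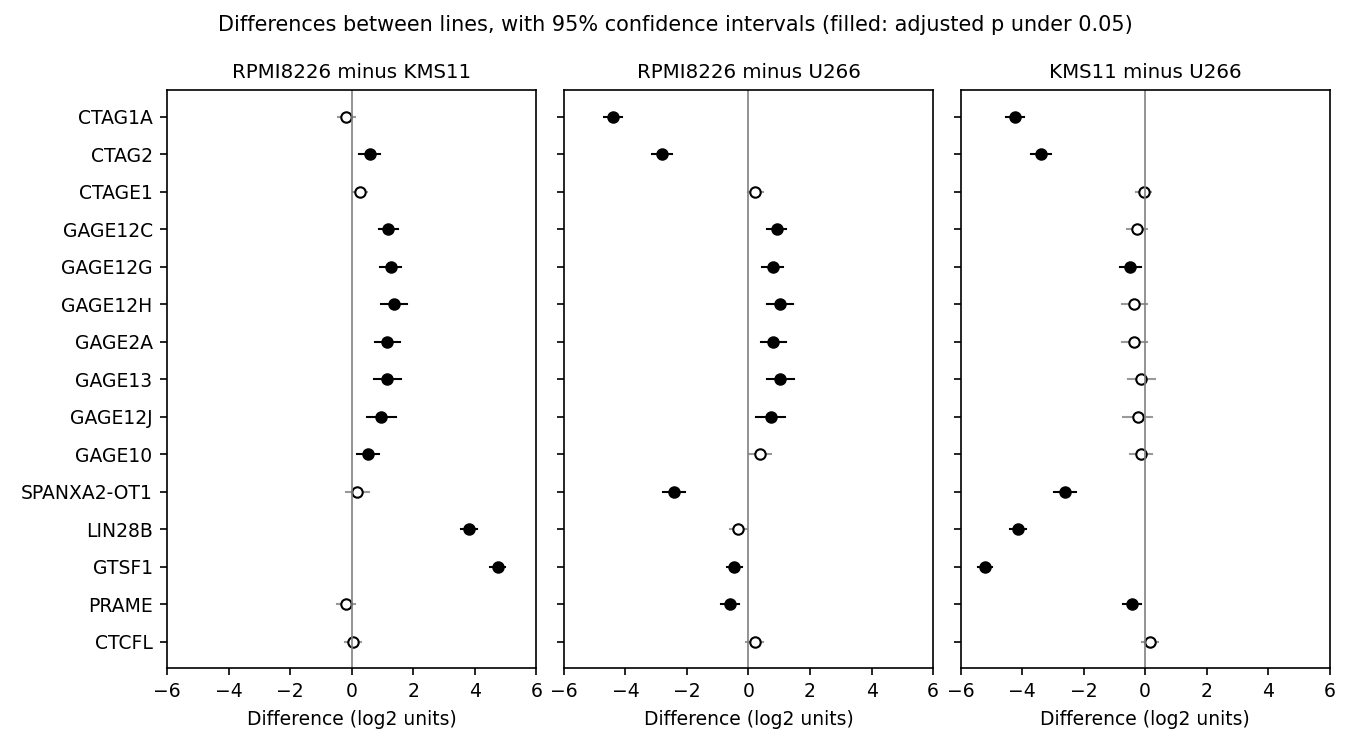
Difference in log2 units between lines (x axis) for the 15 genes (rows), in panels for RPMI8226 minus KMS11, RPMI8226 minus U266 and KMS11 minus U266, with bars for 95% confidence intervals and filled points where limma's adjusted p is under 0.05. LIN28B and GTSF1 stand 3.80 and 4.75 units right of 0 in the first panel, while CTAG1A and CTAG2 stand -4.41 and -2.81 units from 0 in the second.

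The promoters of this pair are shown because both genes change together between the lines and yet begin in unlike sequence. Each window runs from 250 bases before to 50 after an annotated start in RefSeq (GRCh38.p14), and CpG dinucleotides, the sites of DNA methylation, are in capitals. RefSeq gives 2 starts for LIN28B and 1 for GTSF1.
LIN28B, chr6:104940715-104941014, plus strand: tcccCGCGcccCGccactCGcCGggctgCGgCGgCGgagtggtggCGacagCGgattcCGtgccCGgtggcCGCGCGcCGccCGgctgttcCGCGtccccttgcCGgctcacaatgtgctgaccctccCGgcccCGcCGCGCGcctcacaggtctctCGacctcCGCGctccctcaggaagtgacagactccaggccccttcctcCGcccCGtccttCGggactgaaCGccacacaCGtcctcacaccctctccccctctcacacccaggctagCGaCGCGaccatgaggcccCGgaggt
LIN28B, chr6:104956857-104957156, plus strand: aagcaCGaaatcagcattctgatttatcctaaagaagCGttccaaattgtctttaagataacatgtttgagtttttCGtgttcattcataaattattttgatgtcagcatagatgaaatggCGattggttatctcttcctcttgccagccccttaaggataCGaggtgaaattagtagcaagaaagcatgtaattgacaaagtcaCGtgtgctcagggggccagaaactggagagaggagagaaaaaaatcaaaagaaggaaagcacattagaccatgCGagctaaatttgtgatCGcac
GTSF1, chr12:54473553-54473852, minus strand: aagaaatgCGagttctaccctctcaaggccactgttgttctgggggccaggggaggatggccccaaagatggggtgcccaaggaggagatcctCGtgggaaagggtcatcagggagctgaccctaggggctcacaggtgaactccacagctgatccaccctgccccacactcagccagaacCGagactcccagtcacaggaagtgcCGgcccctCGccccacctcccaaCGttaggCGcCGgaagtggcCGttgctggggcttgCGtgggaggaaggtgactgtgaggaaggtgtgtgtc
The first LIN28B window holds 37 CpG sites and the second 8, and the GTSF1 window holds 10, where the median of all 35116 windows is 14. Methylation was not measured here, and which LIN28B start was used is unknown from these arrays. The letters CCGGAA, the core of a binding site of ETS factors with a CpG in it, were searched on both strands. They occur once in the GTSF1 window, at base 239, and in neither LIN28B window. They also occur in 1 window each of CTCFL and PRAME, and in 17.2% of all windows. Windows of CTAG1A, CTAG2 and SPANXA2-OT1 were not used here.

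The GAGE genes were highest in RPMI8226, at a more modest level. The 6 genes other than GAGE10 had line means of 5.13 to 5.93 log2 units in RPMI8226, 4.18 to 4.67 in KMS11 and 4.42 to 4.99 in U266. All 6 were higher in RPMI8226 than in KMS11 and than in U266 with limma's adjusted p under 0.05 in each contrast. These were the 6 of the 15 genes (40%) with that pattern, against 9.72% of all named genes. With these 6 counted once, 1 of 10 genes was higher in RPMI8226 than in U266, where 18.7% of all named genes were. The 6 are near-identical copies and not 6 separate measurements. GAGE12H, the widest of them, stood at 6.10 with mimic and 5.76 in the control of RPMI8226, at 4.57 with mimic and 4.54 in the control of KMS11, and at 4.73 with mimic and 5.09 in the control of U266. RPMI8226 lay above every other array, 2.59-fold over KMS11 (log2 difference 1.37, limma's adjusted p = 0.00127) and 2.03-fold over U266 (1.02, adjusted p = 0.00408).

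The other GAGE genes gave smaller differences of the same kind. RPMI8226 minus KMS11 was 1.27 for GAGE12G, 1.18 for GAGE12C, 1.16 for GAGE2A, 1.15 for GAGE13 and 0.96 for GAGE12J. For GAGE12J this call was lost without the mimic array of KMS11 (0.75), and its call against U266 (0.72) without the mimic array of RPMI8226 (0.36) or of U266 (0.57). GAGE2A lost its call against U266 (0.81) without either array of RPMI8226 (0.87 and 0.75). KMS11 was lower than U266 for GAGE12G alone (-0.48, adjusted p = 0.0371), and not after quantile normalization (-0.43), with the mean of its probe sets (-0.44) or without 1 of 3 arrays (-0.55 to -0.27). Without the mimic array of U266, GAGE12H (-0.62) and GAGE2A (-0.63) passed this contrast too. None of the 6 was high in any line.

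GAGE10 read differently from its relatives. It stood at 2.78 with mimic and 2.98 in the control of RPMI8226, at 2.52 with mimic and 2.20 in the control of KMS11, and at 2.58 with mimic and 2.42 in the control of U266. Its arrays were low in every line, and it missed the F test (limma's adjusted p = 0.0537) but passed with a variance trend or with no treatment term. RPMI8226 minus KMS11 was 0.52 (adjusted p = 0.0334), lost without the control array of RPMI8226 (0.30) or of KMS11 (0.34).

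How far these GAGE values are separate was read from the probe sets. The 11 probe sets of the 6 genes held 9 distinct sets of values, because 3 of the 4 GAGE12C probe sets had identical values on all 6 arrays. The 2 probe sets of CTAG1A were also identical. The change with mimic in KMS11 was 0.03 log2 units in each of GAGE12C, GAGE12G and GAGE12H. In all 11 probe sets both RPMI8226 arrays lay above all arrays of KMS11 and U266. The 4 GAGE12C probe sets differed in level, with means in RPMI8226 of 5.02 to 5.85, and the 2 of GAGE12G and of GAGE2A had means there of 5.77 to 5.85 and of 5.60 to 5.71. Which copy of the cluster was transcribed cannot be told from these values.

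The GAGE promoters show the same degree of likeness. The windows of GAGE12C, GAGE12H, GAGE12J and GAGE2A were letter for letter the same. That of GAGE13 differed from them by 1 edit (a base changed, added or lost), that of GAGE12G by 6 and that of GAGE10 by 34. The 6 edits of GAGE12G come from a shifted window, with ccc gained at its front and tga lost at its end. Between these its letters were the same as in the shared window. The shared window and that of GAGE10 are shown because they set apart the gene whose values differ, with CpG sites in capitals.
GAGE12C, chrX:49531927-49532226, plus strand: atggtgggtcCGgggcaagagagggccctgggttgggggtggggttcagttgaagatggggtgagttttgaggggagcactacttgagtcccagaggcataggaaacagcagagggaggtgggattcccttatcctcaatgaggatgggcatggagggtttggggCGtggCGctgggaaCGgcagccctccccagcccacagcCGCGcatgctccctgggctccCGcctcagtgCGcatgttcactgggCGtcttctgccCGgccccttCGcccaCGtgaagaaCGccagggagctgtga
GAGE10, chrX:49303396-49303695, plus strand: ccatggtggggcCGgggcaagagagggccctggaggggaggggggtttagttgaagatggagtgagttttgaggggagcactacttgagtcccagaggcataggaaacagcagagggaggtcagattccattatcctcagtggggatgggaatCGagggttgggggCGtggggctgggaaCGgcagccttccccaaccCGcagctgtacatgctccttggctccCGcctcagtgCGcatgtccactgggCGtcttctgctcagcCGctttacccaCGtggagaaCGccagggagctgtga
The first holds 13 CpG sites and the second 11, and neither holds CCGGAA.

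The remaining genes were low in every line. PRAME, a frequent antigen of myeloma and melanoma, stood at 3.56 with mimic and 3.65 in the control of RPMI8226, at 3.90 with mimic and 3.68 in the control of KMS11, and at 4.31 with mimic and 4.10 in the control of U266. Both U266 arrays lay above all others, by small margins (F test, limma's adjusted p = 0.0142, not passed without the mimic array of U266). RPMI8226 was lower than U266 by -0.60 (limma's adjusted p = 0.00836) and KMS11 by -0.42 (adjusted p = 0.0358). The first call was lost without the mimic array of RPMI8226 (-0.45) or of U266 (-0.53). The second was lost without any 1 of the 4 arrays of KMS11 and U266 (-0.50 to -0.34). With a variance trend the second was lost as well. CTCFL had line means of 2.98 for RPMI8226, 2.94 for KMS11 and 2.78 for U266 (F test, limma's adjusted p = 0.326), and CTAGE1 of 2.96 for RPMI8226, 2.69 for KMS11 and 2.74 for U266 (adjusted p = 0.125).

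In pairs of lines, 10 of 15 genes were higher in RPMI8226 than in KMS11 and 0 lower, where 16.4% and 20.4% of all named genes were, 36.8% in all. Against U266, 6 were higher in RPMI8226 and 5 lower, where 18.7% and 20.3% of all named genes were, 39% in all. In KMS11 0 were higher than in U266 and 7 lower, where 19.9% and 17.2% were, 37.1% in all. These counts hold the 6 alike GAGE genes. With those counted once, 5 of 10 genes were higher in RPMI8226 than in KMS11 and 0 lower. Against U266, 1 of the 10 was then higher in RPMI8226 and 5 lower, and in KMS11 0 were higher and 6 lower. At least 4-fold and past the test, RPMI8226 was higher than KMS11 in 2 genes and lower in 0 (1.51% and 1.88% of all named genes). RPMI8226 was as far above U266 in 0 genes and below it in 3 (2.11% and 2.13%). KMS11 was as far above U266 in 0 genes and below it in 5 (1.89% and 1.59%). The 10 differences of at least 4-fold in the 15 genes passed with the same sign in each of the 128 checks with other settings or with an array left out.

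No gene of these families passed the test for the mimic. With limma and the line as a block term, 0 of 15 passed an adjusted p of 0.05, and 0% of all 14884 named genes did. At an unadjusted p under 0.05 there were 0 of the 15 genes and 767 named genes (5.15%). By sign 9 were higher on average, and their median change was 0.01 log2 units, against 0.005 over all named genes. A change of the same sign in all 3 lines was seen for 1 gene, CTAG1A, against 25.1% of all named genes. The 95% confidence interval, not corrected for the number of genes, lay within 1 log2 unit (2-fold) on either side of 0 for all 15.

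The values nearest to a change were those of genes with uneven lines. SPANXA2-OT1 had the lowest mean change, -0.25 ± 0.29 log2 units (SD of 3 lines), with 0.02 for RPMI8226, -0.22 for KMS11 and -0.55 for U266 (limma's adjusted p = 0.967). GAGE12C gave -0.13 ± 0.21, CTAG2 -0.13 ± 0.24, GAGE12G -0.06 ± 0.25 and GAGE2A -0.006 ± 0.35. At the other end CTAG1A gave 0.16 ± 0.16, of which RPMI8226 gave 0.33, KMS11 0.14 and U266 0.001. GAGE12J followed at 0.13 ± 0.41, PRAME at 0.11 ± 0.18, GAGE10 at 0.09 ± 0.27 and GTSF1 at 0.04 ± 0.06. LIN28B, at 0.009 ± 0.13, gave 0.11 for RPMI8226, 0.06 for KMS11 and -0.14 for U266. Each of these means was smaller than the SD of its 3 lines.

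Within single lines the widest change was that of GAGE12J in RPMI8226, 0.61 log2 units higher with mimic. The SD of the change over all named genes was 0.22 for RPMI8226, 0.21 for KMS11 and 0.22 for U266. In U266 all 11 probe sets of the 6 alike GAGE genes were lower with mimic, and in RPMI8226 7 of the 11 were higher. These share sequence and are not separate observations. A test of each line's change against the other 2, added after the data were seen and resting on 1 residual degree of freedom, called 0 of the 15 genes and 0 of all named genes in any line. Its smallest adjusted p among the 15 was 0.783 (limma, GAGE2A in U266), with 2 genes at an unadjusted p under 0.05 for RPMI8226, 0 for KMS11 and 2 for U266. These were GAGE12J and GAGE13 for RPMI8226, and GAGE12H and GAGE2A for U266. All are among the 6 alike GAGE genes, so neither pair is 2 separate measurements. The share of all named genes under that unadjusted threshold was not counted.

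**Figure D3:**
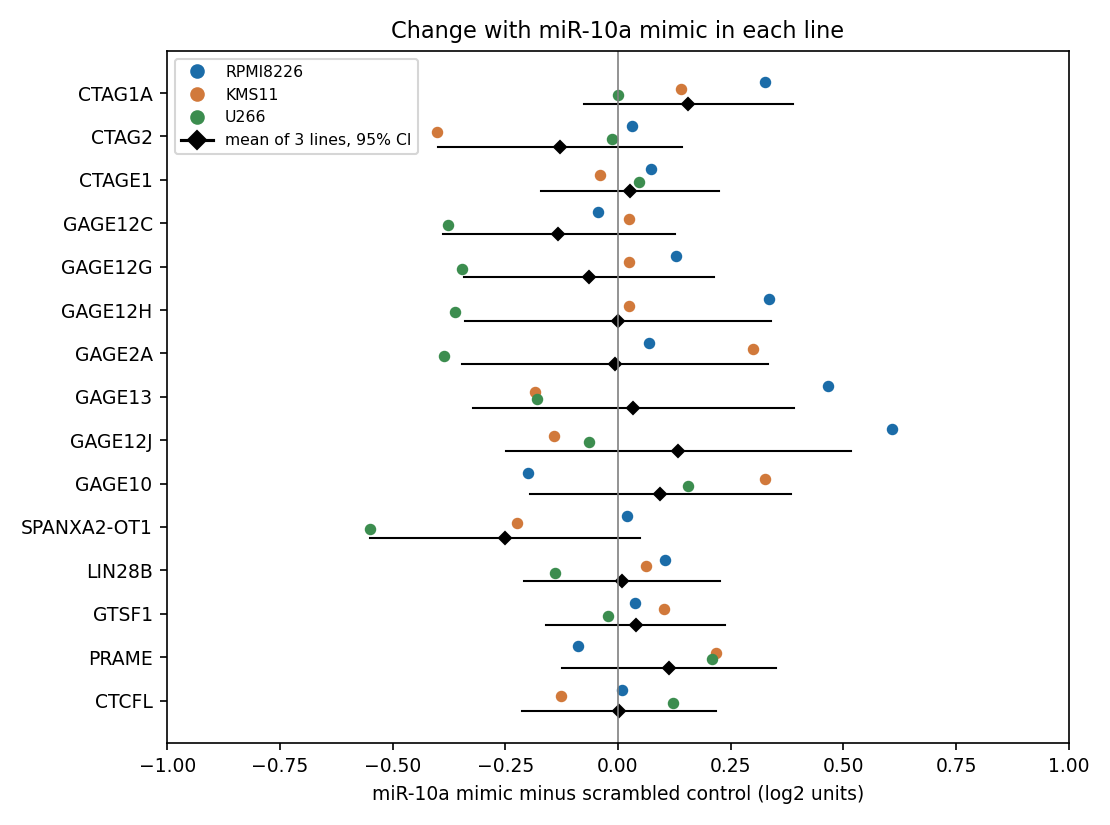
Change in log2 units, miR-10a mimic minus scrambled control, for the 15 genes (rows), with a circle for each line and a diamond with a bar for the mean of the 3 lines and its 95% confidence interval. Every interval spans 0, and the widest single value is 0.61 for GAGE12J in RPMI8226.

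Other cancer-testis genes, taken from a separate list, included 4 that were far higher in U266 than elsewhere. Of 102 listed genes 64 were named on the array, and 24 (37.5%) passed the F test of the line, against 50.8% of all named genes. This share goes with level, since 6135 of the 7442 genes at or above the median level passed when fitted alone. Of the 64 genes, 50 were low in RPMI8226, 53 in KMS11 and 48 in U266, where 48.4%, 48.4% and 48.3% of all named genes were. The median range of the 64 was 0.27 log2 units, below the 0.46 of all named genes. Against U266, 5 of the 64 (7.81%) were higher in RPMI8226 and 17 (26.6%) lower, where 18.7% and 20.3% of all named genes were. In KMS11 6 (9.38%) were higher than in U266 and 12 (18.8%) lower, where 19.9% and 17.2% were. At least 4-fold higher in U266 than in both other lines were 4 of the 64, against 0.873% of all named genes. As far above both other lines in RPMI8226 or in KMS11 were 0, where 0.88% and 0.773% of all named genes were. With 64 genes, counts of 0 are near those shares. All 4 of the U266 genes lie on the X chromosome, which holds 12 of the 64. Among the 569 named genes of that chromosome, 2.99% had this pattern in U266.

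The 4 were SAGE1, PASD1, FMR1NB and DDX53, of which the last was named for this pattern after its values were seen. SAGE1, a sarcoma antigen gene, read 2.56 with mimic and 2.97 in the control of RPMI8226, 2.43 with mimic and 2.23 in the control of KMS11, and 7.43 with mimic and 7.65 in the control of U266. KMS11 was lower than U266 by -5.21 log2 units (limma's adjusted p = 6.47e-06). PASD1, a testis antigen with a PAS domain, had U266 values of 6.13 with mimic and 6.67 in the control, and at most 2.48 elsewhere. FMR1NB, a gene beside FMR1, had 6.43 and 6.66 with mimic and control in U266 and at most 3.11 elsewhere. DDX53, an RNA helicase gene, averaged 4.92 in U266, 2.66 in RPMI8226 and 2.53 in KMS11. DSCR8, on chromosome 21, had line means of 4.83 for RPMI8226, 2.90 for KMS11 and 6.49 for U266, the order seen for LIN28B and GTSF1.

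**Figure D4:**
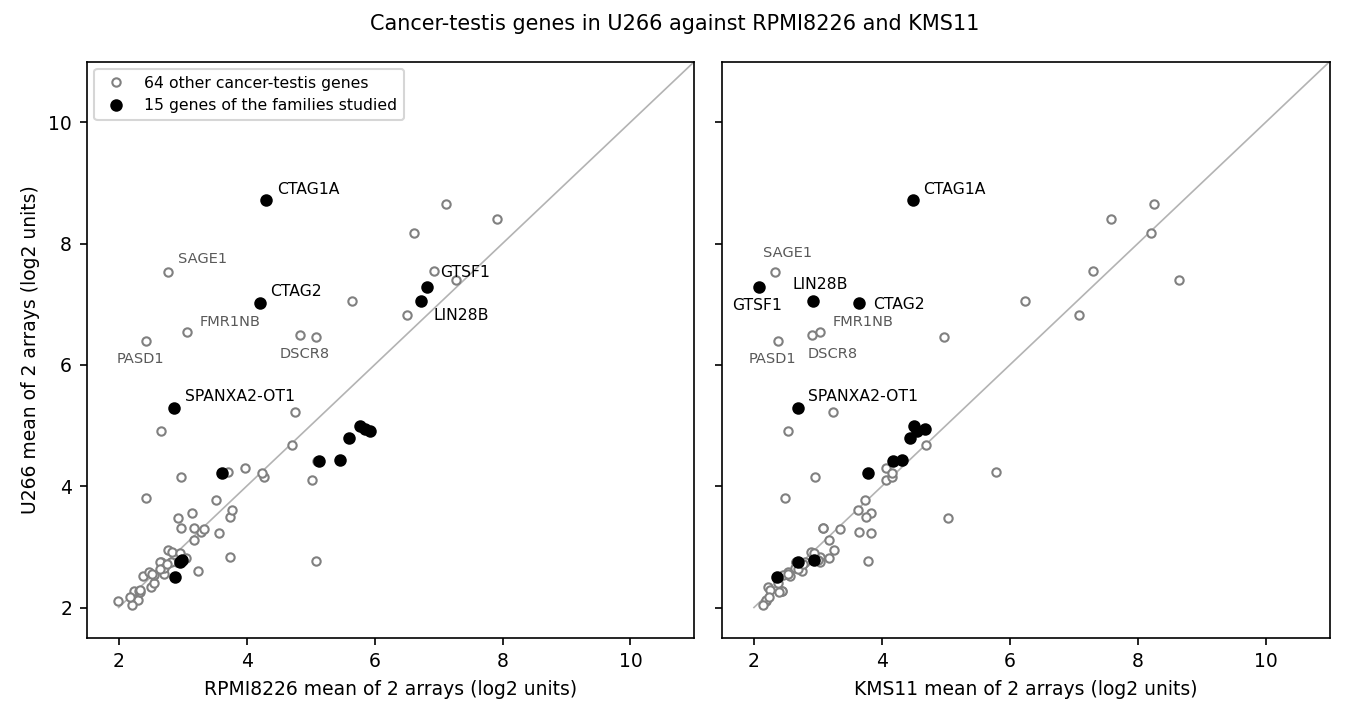
Mean log2 level in U266 (y axis) against that in RPMI8226 (left) and in KMS11 (right) for the 15 genes (filled) and for 64 other cancer-testis genes (open), with the line of equal level. CTAG1A, CTAG2, SPANXA2-OT1, SAGE1, PASD1 and FMR1NB lie above the line in both panels, and LIN28B and GTSF1 lie near it on the left and far above it on the right.

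A list of regulators of DNA methylation and chromatin at germline genes, which holds silencing factors and the TET enzymes that remove methylation, had many members that differed between lines. Of 34 listed genes 28 were named, and 24 (85.7%) passed the F test, against 50.8% of all named genes. Of the 28 genes, 17 were high in each line, where 24.1% to 24.2% of all named genes were. Among the 7442 genes at or above the median level, 6135 passed when fitted alone, so the 85.7% partly reflects level. In KMS11 14 of the 28 (50%) were higher than in U266 and 6 (21.4%) lower, where 19.9% and 17.2% of all named genes were. In RPMI8226 3 (10.7%) were higher than in KMS11 and 13 (46.4%) lower, where 16.4% and 20.4% of all named genes were. DNMT3B, a de novo DNA methyltransferase, stood at 4.55 with mimic and 4.09 in the control of RPMI8226, at 7.45 with mimic and 7.16 in the control of KMS11, and at 5.08 with mimic and 5.09 in the control of U266. The KMS11 values lay above all others (RPMI8226 minus KMS11, limma's adjusted p = 2.63e-05, and KMS11 minus U266 2.22 log2 units, adjusted p = 7.97e-05). TET1, which oxidises methylated cytosine, averaged 3.44 for RPMI8226, 6.20 for KMS11 and 3.55 for U266. KDM5B, a histone demethylase, averaged 3.83, 5.62 and 4.11 in the same order of lines. EZH2, the catalytic subunit of a Polycomb complex, averaged 8.35 for RPMI8226 and 9.97 for KMS11, with 8.96 with mimic and 9.04 in the control of U266. With 3 lines, the part of these genes in the low levels of KMS11 was not tested.

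Among genes of the LIN28 and let-7 axis, the differences between lines were of several kinds. Of 29 listed genes 21 were named, and 11 (52.4%) passed the F test, a share near the 50.8% of all named genes. IGF2BP3, an RNA-binding protein and let-7 target, stood at 6.98 with mimic and 6.71 in the control of RPMI8226, at 6.87 with mimic and 7.14 in the control of KMS11, and at 2.42 with mimic and 2.79 in the control of U266. It was low in U266, where LIN28B was high, and KMS11 minus U266 was 4.40 log2 units (limma's adjusted p = 1.5e-05). IGF2BP2 averaged 7.78 for RPMI8226, 6.72 for KMS11 and 4.95 for U266, and IGF2BP1 3.78, 6.39 and 3.56 in the same order. The probe set of MIRLET7F1, a precursor gene and not the mature microRNA, averaged 2.38 for RPMI8226, 1.82 for KMS11 and 3.01 for U266, near the bottom of the scale and in the line order of LIN28B. Other let-7 genes did not share that order. MIRLET7G (4.88, 3.79 and 4.09) and MIR98 (6.51, 6.01 and 6.09), named in addition to the 4 of widest range, also passed and were highest in RPMI8226. The remaining named let-7 genes did not pass the F test. The mature let-7f is shown because its maturation is the step LIN28B acts on (chr9:94176353-94176374, plus strand, RefSeq GRCh38.p14), with its seed in capitals.
hsa-let-7f-5p: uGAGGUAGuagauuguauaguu

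Of the piRNA pathway, in which GTSF1 acts, 16 of 21 listed genes were named. Of these 6 (37.5%) passed the F test, against 50.8% of all named genes. Most of the 16 were low, 14 in RPMI8226, 14 in KMS11 and 13 in U266 (48.3% to 48.4% of all named genes), and low genes pass less often. Lower than in U266 were 5 (31.2%) in RPMI8226 and 4 (25%) in KMS11, against 20.3% and 17.2% of all named genes, and 0 were higher in either. TDRD5, a tudor domain protein of the germ line, averaged 2.84 for RPMI8226, 2.78 for KMS11 and 5.24 for U266. TDRKH averaged 4.96, 6.73 and 6.90 in the same order, HENMT1, the methylase of piRNA ends, 2.82, 2.34 and 4.19, and PRMT5, an arginine methyltransferase, 5.58, 5.71 and 6.61. Of germ cell markers all 10 listed were named and 2 passed the F test, SYCP3, a protein of meiotic chromosomes, with 3.21, 2.46 and 2.08, and TNP1, a sperm chromatin protein, with 2.44, 2.92 and 2.50. The mean level of the 10 was 3.25 to 3.48 on the 6 arrays.

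Ubiquitin ligases and complexes that MAGE proteins bind, and genes that present antigens on HLA class I, completed the lists. Of 18 partners 14 were named and 12 (85.7%) passed the F test, against 50.8% of all named genes. Of the 14 partners, 8 were high in RPMI8226, 9 in KMS11 and 8 in U266 (24.1% to 24.2% of all named genes). Among genes at or above the median level, 6135 of 7442 passed when fitted alone. In RPMI8226 2 (14.3%) were higher than in U266 and 9 (64.3%) lower, where 18.7% and 20.3% of all named genes were. NDN, a MAGE family gene outside the rule, averaged 2.41 for RPMI8226, 2.55 for KMS11 and 4.51 for U266, and TRIM28, a corepressor and ligase, 7.51, 8.10 and 8.97. TRIM69 averaged 4.53, 4.92 and 6.27, and TRIM37 7.65, 8.22 and 8.93. Of 22 presentation genes 7 were named and 6 (85.7%) passed, with 5 (71.4%) higher in RPMI8226 than in KMS11 and 0 lower, where 16.4% and 20.4% of all named genes were. These are well expressed genes too, with all 7 high in RPMI8226, 5 in KMS11 and 5 in U266. TAPBPL, a peptide editor of class I, averaged 6.99 for RPMI8226, 6.41 for KMS11 and 4.85 for U266. ERAP2, a peptide-trimming protease, averaged 6.94, 5.14 and 6.54, its relative ERAP1 8.04, 7.51 and 7.25, and TAPBP (tapasin) 9.04, 8.59 and 8.18. None of the genes on these lists passed an adjusted p of 0.05 for the mimic in limma, with 6 at an unadjusted p under 0.05. These were 3 of the 64 other cancer-testis genes, 2 of the 28 regulators and 1 of the 21 LIN28 and let-7 genes. Of all named genes, 5.15% were under that threshold.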

How the data were processed

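Per the labels and the deposited table, the authors made log2 expression values for 53617 probe sets on 6 arrays. Per the submitters' processing notes, Affymetrix Expression Console 1.3.0 was used. Background correction, normalization, summarization and genome build were not given in the sources used here, and the scale between arrays was taken as deposited. With 6 arrays, their number sets the precision.

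GEO's platform annotation supplied gene names and gave 1 symbol for 16098 probe sets, several for 0 and none for 37519. All 16098 gene identifiers matched RefSeq (GRCh38.p14). For each of the 14884 genes the probe set with the highest mean was used. No filter on low values was applied, so that all 15 genes are accounted for (9 of the 15 pass the median of 4.70).

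The model in limma 3.58.1 under R 4.3.3 held line and treatment (lmFit and eBayes, 2 residual and 4.12 prior degrees of freedom), with Benjamini-Hochberg adjustment over all genes and a threshold of 0.05. It was tested on simulated data. The cell line label pairs mimic and control, and deviations from the treatment means correlated at 0.935, 0.932 and 0.938 within RPMI8226, KMS11 and U266, across genes. Genes were named by rule: all 15, the plasma cell markers, and from each other list the 4 with the widest line range among those that passed, with B cell, stromal, and T, NK and myeloid markers given as counts. Members and lists were chosen with earlier results of these data known. Alternatives were a filter, quantile normalization, centring, the mean of probe sets, a variance trend, no block or treatment term, and leaving out lines or arrays. Figures were drawn with matplotlib 3.10.9.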

Additional observations from a re-analysis of the deposited data

How the results depend on the processing

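The miR-10a comparison called 0 of the 15 genes and 0 of all named genes under every alternative run, including no replicate block (pairing ignored), which gave 74 named genes at an unadjusted p under 0.05. Uncalled mean changes turned sign for CTCFL after quantile normalization (-0.002) and with centred array medians (-0.006). With a line left out, the mean change ranged from -0.21 to 0.009 for CTAG2, from -0.059 to 0.066 for CTCFL, from -0.022 to 0.24 for GAGE10, from -0.16 to 0.077 for GAGE12G, from -0.10 to 0.27 for GAGE12J, from -0.18 to 0.14 for GAGE13, from -0.16 to 0.18 for GAGE2A and from -0.039 to 0.083 for LIN28B. With an array left out, 1 line rests on a single array, so sizes and no counts are given here. The range of line means was then 4.28 to 4.54 log2 units for CTAG1A, 3.18 to 3.59 for CTAG2 and 2.38 to 2.83 for SPANXA2-OT1. For LIN28B it was 4.02 to 4.24 and for GTSF1 5.16 to 5.25. Differences that missed the threshold turned sign in such fits for CTCFL (-0.049 to 0.14) and SPANXA2-OT1 (-0.022 to 0.39) in RPMI8226 minus KMS11, and for GAGE10 (-0.32 to 0.035) and GAGE13 (-0.28 to 0.042) in KMS11 minus U266. Counting the 6 alike GAGE genes once, an alternative chosen after seeing the data, left 10 genes to test, because the other copies leave the count. Of the 10, 7 passed the F test, 5 the contrast of RPMI8226 and KMS11 and 6 that of RPMI8226 and U266. Of the 14879 named genes in these fits, 7556, 5471 and 5804 passed in the same order. The number of genes high in at least 1 line stayed at 4 with control arrays only and with the mean of probe sets. Signal over background is not in the table, so differences between low values, those of GAGE10, CTCFL, CTAGE1 and PRAME among them, may be compressed.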

Other observations

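The nearest named genes on either side of the 5 genes with the widest line ranges were read from the gene order in RefSeq (GRCh38.p14), a comparison chosen after the values were seen. Nearest to CTAG2, with 2 RefSeq genes between, lies GAB3, an adaptor gene of growth factor signalling, with line means of 3.60 log2 units for RPMI8226, 3.71 for KMS11 and 6.27 for U266, highest in U266 as CTAG1A and CTAG2 were (F test, limma's adjusted p = 1.05e-05). PLXNA3, a semaphorin receptor gene, lies on the other side of CTAG1A, with 10 RefSeq genes between. It averaged 4.70 for RPMI8226, 5.12 for KMS11 and 4.03 for U266, so U266 was lowest there. Next to GTSF1 lies NCKAP1L, which encodes the blood cell actin regulator HEM1. It averaged 8.53 for RPMI8226, 3.95 for KMS11 and 5.22 for U266, lowest in KMS11 as GTSF1 was (adjusted p = 4.07e-06). ZNF385A, on the other side, had 4.11, 4.41 and 3.94 in the same order. POPDC1, beside LIN28B, ran the other way, with 2.81 for RPMI8226, 8.63 for KMS11 and 5.51 for U266 (adjusted p = 2.24e-06). LIN28B-AS1 averaged 3.26, 3.31 and 3.42 and did not pass (adjusted p = 0.427). The 4 named neighbours of SPANXA2-OT1 had ranges of 0.16 to 0.34 log2 units, and none passed. They lie far off in gene order, with 7 to 37 RefSeq genes between, so genes closer to SPANXA2-OT1 were not read.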
